A study of Mus musculus with 2 samples.

Results

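The genes described here are 9 genes of the complement system: the C1q chains C1qa, C1qb and C1qc, the components C3 and C4b, factor B (Cfb), properdin (Cfp) and the anaphylatoxin receptors C3ar1 and C5ar1. They were taken by symbol from the 31053 features of the deposited matrices, and all 9 were found. They were measured by droplet single-cell RNA sequencing in 2 libraries of CD45+ cells sorted from tumours of mice bearing AB1-HA, a mouse mesothelioma line that carries an influenza haemagglutinin. One library came from mice given an antibody against VEGF, a growth factor of blood vessels, and 1 from mice given a control antibody, with the same tumour line, dissociation, sort and 10x Genomics 3′ chemistry in both. The strain, sex, age, dose and number of mice behind each library are not given in the sources used here. With 1 library per group there is no replicate check, so no p-value is given and every difference is a difference between these libraries.

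Complement is a cascade of plasma and membrane proteins that marks surfaces for uptake and releases peptides that attract and activate leukocytes. C1q, built from its A, B and C chains, binds antibody or dying cells and starts the classical pathway, in which C4 and then C3 are cleaved; factor B and properdin build and stabilise the C3-cleaving enzyme of the alternative pathway. The peptides C3a and C5a act on C3ar1 and C5ar1. The liver makes most plasma complement, while C1q is made mainly by macrophages and related myeloid cells, and C1q-expressing macrophages are common in tumours.

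After filtering, 8159 anti-VEGF and 10805 control cells remained, with a median of 22503 UMIs (unique molecular identifiers, counts of captured RNA molecules) in the anti-VEGF library and 18265 in the control library. Classes were gated on marker genes, none of which was a complement gene described here, and the gate thresholds were set on these data. Macrophages were 4497 anti-VEGF and 6024 control cells, and cells with genes of osteoclasts, called osteoclast-like, were 1007 anti-VEGF and 1973 control cells. Monocyte-like cells, which passed both the macrophage and the monocyte gate, numbered 328 in the anti-VEGF and 163 in the control library. Neutrophils numbered 250 and 55. Cells with collagen genes were 582 anti-VEGF and 459 control cells; the leukocyte gene Ptprc, which encodes CD45, was detected in 7.56% of them in the anti-VEGF and 6.97% in the control library, against 89.6% and 81.0% of macrophages, so this class goes against the CD45+ label of the sort. Whether they are tumour cells or fibroblasts was not analysed here. T, NK, B, dendritic, mast and endothelial cells were each under 100 cells in both libraries. Cells with markers of more than 1 lineage (284 anti-VEGF and 272 control) were set apart as mixed, and 1115 anti-VEGF and 1664 control cells met no gate. Osteoclast-like and monocyte-like cells were not set apart for their macrophage markers. Among the kept barcodes, 29 sequences occurred in both libraries. Levels are the summed UMIs of a gene per 1000000 UMIs of the class (CPM). Intervals are exact 95% intervals that cover counting error only.

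On the GRCm38 annotation the C1q genes lie side by side on the minus strand of chromosome 4, C1qb at chr4:136880129-136886187, C1qc at chr4:136889804-136893065 and C1qa at chr4:136895917-136898803, a stretch of 18675 bases with no other feature of the matrices in it. C3 (chr17:57203970-57228136), C4b (chr17:34728380-34743882) and Cfb (chr17:34856374-34862518) lie on chromosome 17, C3ar1 at chr6:122847138-122856161, C5ar1 at chr7:16246743-16259540 and Cfp at chrX:20925454-20931555, each on the minus strand. Cfb is overlapped on the same strand by the read-through gene Gm20547, which had 0 UMIs in anti-VEGF cells and 1 in control cells; reads shared by both genes may not have been counted, so Cfb levels are uncertain. The near-identical paralog C4a is not among the features of the matrices, so it had no count of its own. How reads shared between C4a and C4b were counted is not stated.

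Upstream sequence of RefSeq (GRCm38.p6) was matched for 6 of the 9 genes. The windows of C1qb and C1qc are shown because the levels of these chains were the most alike among the genes with a window, and that of C3ar1 because it holds a motif the others lack. Each is written 5′ to 3′ in the direction of the gene and leaves out bases of annotated exons. Capitals mark GAGGAA, the core bound by the myeloid factor PU.1, on either strand (TTCCTC on the other), or TGANTCA, the AP-1 motif, on either strand.
C1qb, chr4:136886201-136886450, minus strand: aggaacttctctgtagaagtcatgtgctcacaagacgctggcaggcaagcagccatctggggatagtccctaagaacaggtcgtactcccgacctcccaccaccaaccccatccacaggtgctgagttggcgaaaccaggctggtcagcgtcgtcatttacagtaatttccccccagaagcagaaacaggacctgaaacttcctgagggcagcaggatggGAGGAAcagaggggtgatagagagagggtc
C1qc, chr4:136893066-136893164, minus strand: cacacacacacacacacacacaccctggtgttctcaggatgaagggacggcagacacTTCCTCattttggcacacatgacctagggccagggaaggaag
C3ar1, chr6:122856162-122856407, minus strand: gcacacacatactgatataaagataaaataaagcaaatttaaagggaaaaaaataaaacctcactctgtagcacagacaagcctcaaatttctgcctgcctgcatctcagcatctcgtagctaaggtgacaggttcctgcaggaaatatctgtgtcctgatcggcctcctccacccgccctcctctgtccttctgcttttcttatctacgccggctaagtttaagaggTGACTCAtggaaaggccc
Over full windows of 250 bases before the start, GAGGAA occurred once in C1qb and once in C1qc and in none of C3, C3ar1, C5ar1 and Cfp, against 23.1% of 27025 windows of the same length. TGANTCA occurred in the window of C3ar1 and in no other window of the 6, against 6.87% of all windows. Searches on both strands for ACGTG (the core of a hypoxia response element), TTCNNNGAA (a gamma-activated site) and the interferon-stimulated response element matched none of the 6 windows, against 16.6%, 7.18% and 3.04% of all windows. These matches describe letters only.

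The C1q chains were highest in macrophages in both libraries. C1qa had 3255 CPM in anti-VEGF macrophages and 4038 CPM in control macrophages, C1qb 1942 CPM against 2629 CPM, and C1qc 1801 CPM against 2430 CPM. Macrophages held 86.8% of all C1qa UMIs of the anti-VEGF library and 89.3% of those of the control library, while they held 57.8% and 61.4% of all UMIs. Monocyte-like cells, which had passed the macrophage gate, came next with 1762 CPM of C1qa in the anti-VEGF and 1951 CPM in the control library. Osteoclast-like cells followed with 358 and 394 CPM. Collagen-expressing cells had 26.7 CPM of C1qa in the anti-VEGF and 45.2 CPM in the control library. T cells had 42.2 CPM against 185 CPM. These values are given as the level in classes where C1q was not expected, though what the collagen-expressing cells are was not analysed. The part of free RNA in these values was not tested. C1qb UMIs per C1qa UMI were 0.751 in anti-VEGF and 0.764 in control collagen-expressing cells. Neutrophils had 209 CPM (161 UMIs) in the anti-VEGF and 347 CPM (60 UMIs) in the control library, from cells with a median of 2194.5 and 2390 UMIs. The osteoclast-like level stood above that of the collagen-expressing cells in each library. In cells of equal depth, 25.5% of anti-VEGF and 29.9% of control osteoclast-like cells held a C1qa UMI, and 12.0% and 11.4% held all 3 chains. Collagen-expressing cells with many macrophage markers had been set apart as mixed, while osteoclast-like cells with any number were kept. Because the gates differ, this order does not show whether osteoclast-like cells express C1q, which was not tested.

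**Figure D1:**
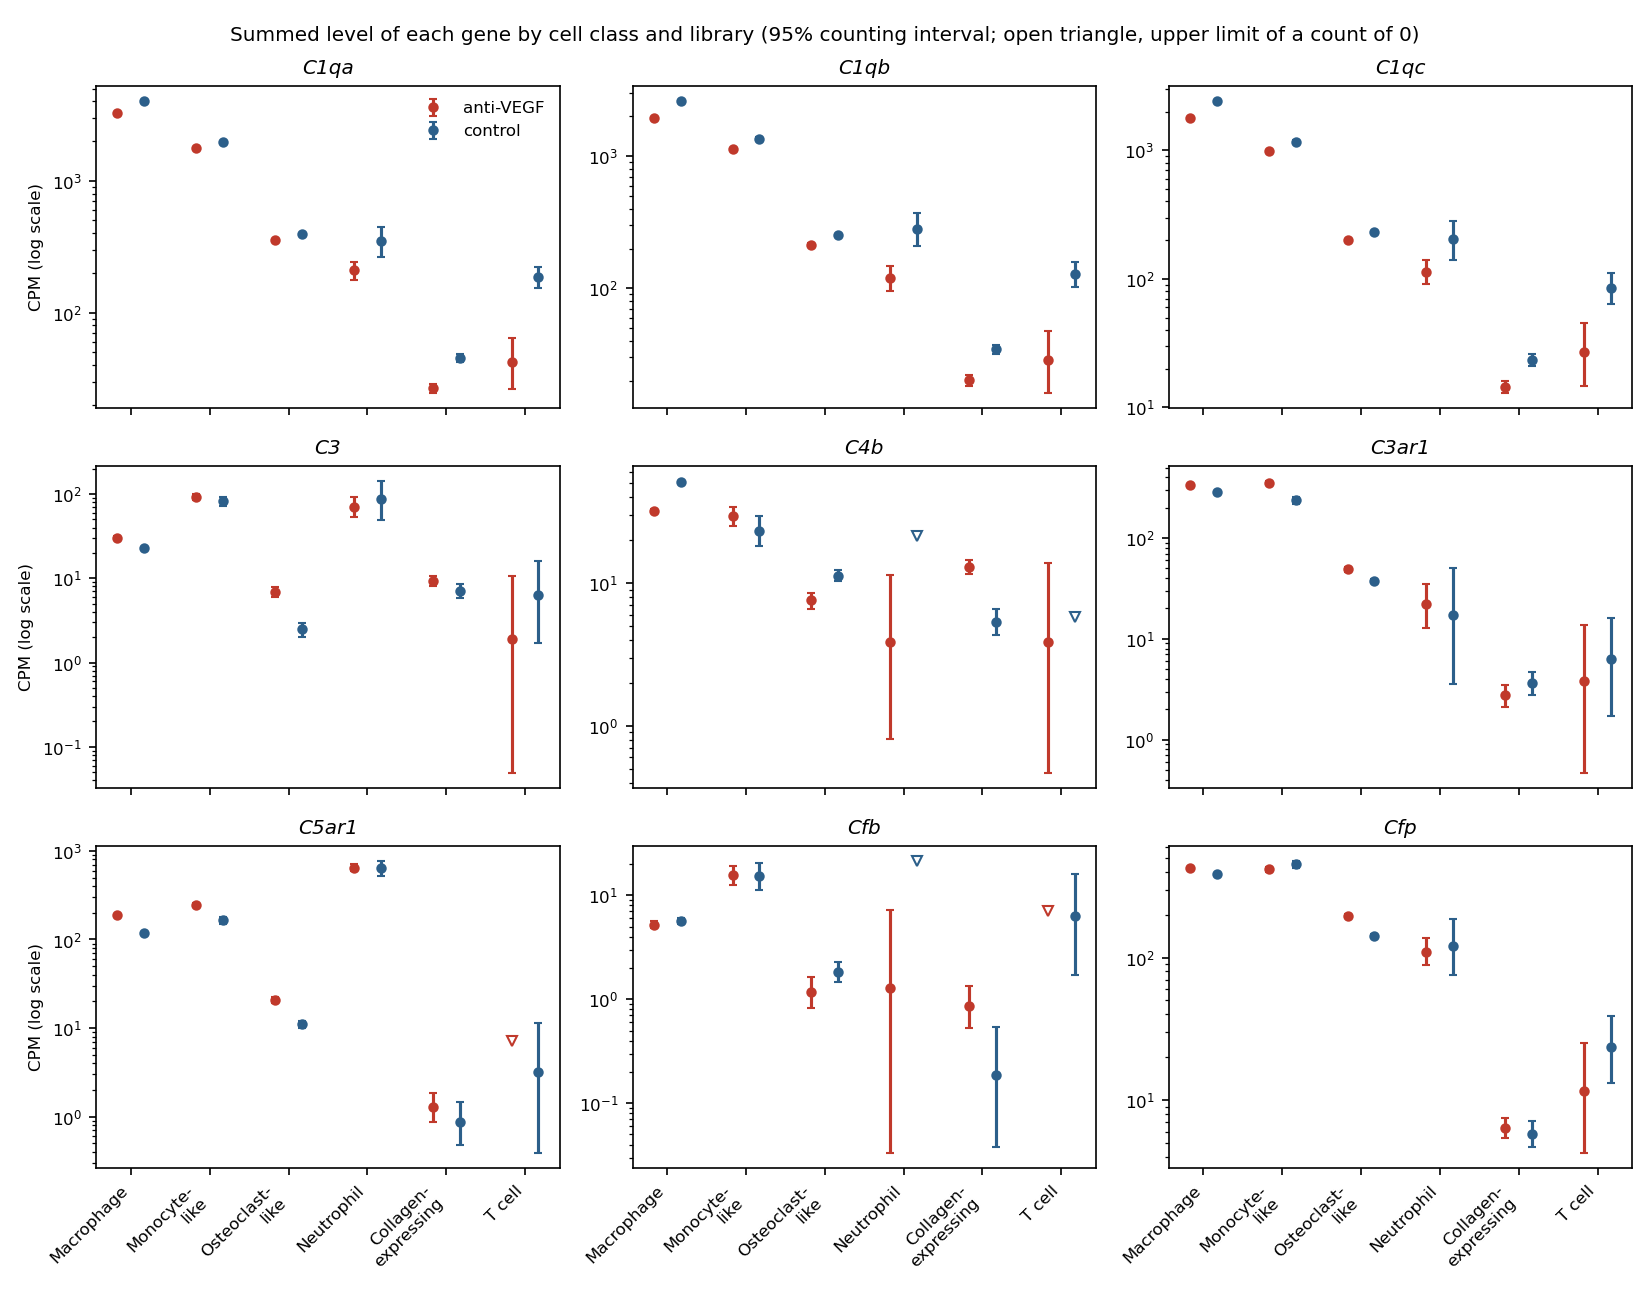
Level of each of the 9 genes (CPM, log scale) in 6 cell classes, with the anti-VEGF library left of the control library in each pair. Points are summed levels and bars exact 95% counting intervals, with open triangles at the upper limit of a count of 0; the C1q chains are highest in macrophages and lowest in collagen-expressing cells, while C5ar1 is highest in neutrophils.

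The chains kept close to 1 ratio to each other. For each C1qa UMI there were 0.597 C1qb UMIs in anti-VEGF macrophages and 0.651 in control macrophages, and 0.553 and 0.602 C1qc UMIs. In osteoclast-like cells the ratio of C1qb to C1qa was 0.597 in the anti-VEGF and 0.639 in the control library. To compare cells of unequal depth, each cell was thinned to 5000 UMIs, which left out 238 anti-VEGF and 1144 control macrophages. Of the osteoclast-like cells it left out 118 of 1007 anti-VEGF and 640 of 1973 control cells. Shares at equal depth thus cover unequal parts of the classes of each library. A UMI of C1qa was then found in 87.8% of anti-VEGF and 85.1% of control macrophages (94.9% and 94.8% before thinning), against 13.6% and 18.5% of collagen-expressing cells at the same depth. All 3 chains were found in 75.7% of anti-VEGF and 76.8% of control macrophages, and none in 8.36% and 9.43%. C1qa and C1qb correlated across macrophages with a Pearson r of 0.871 over 4259 anti-VEGF cells and 0.864 over 4880 control cells, cells that share a library and a gate.

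The share of macrophages with C1q was thus close in both libraries, while the amount per cell was not. The summed C1q UMIs of a thinned macrophage had a median of 28 in the anti-VEGF library (quartiles 7 and 56) and 45 in the control library (quartiles 8 and 78). In the plot of C1q per cell, the control distribution has its mode one bin above the anti-VEGF one and fewer cells at intermediate values. Osteoclast-like cells had a median of 0 in both libraries, with 10.2 C1q UMIs at the 90th percentile of anti-VEGF and 6 at that of control cells.

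**Figure D2:**
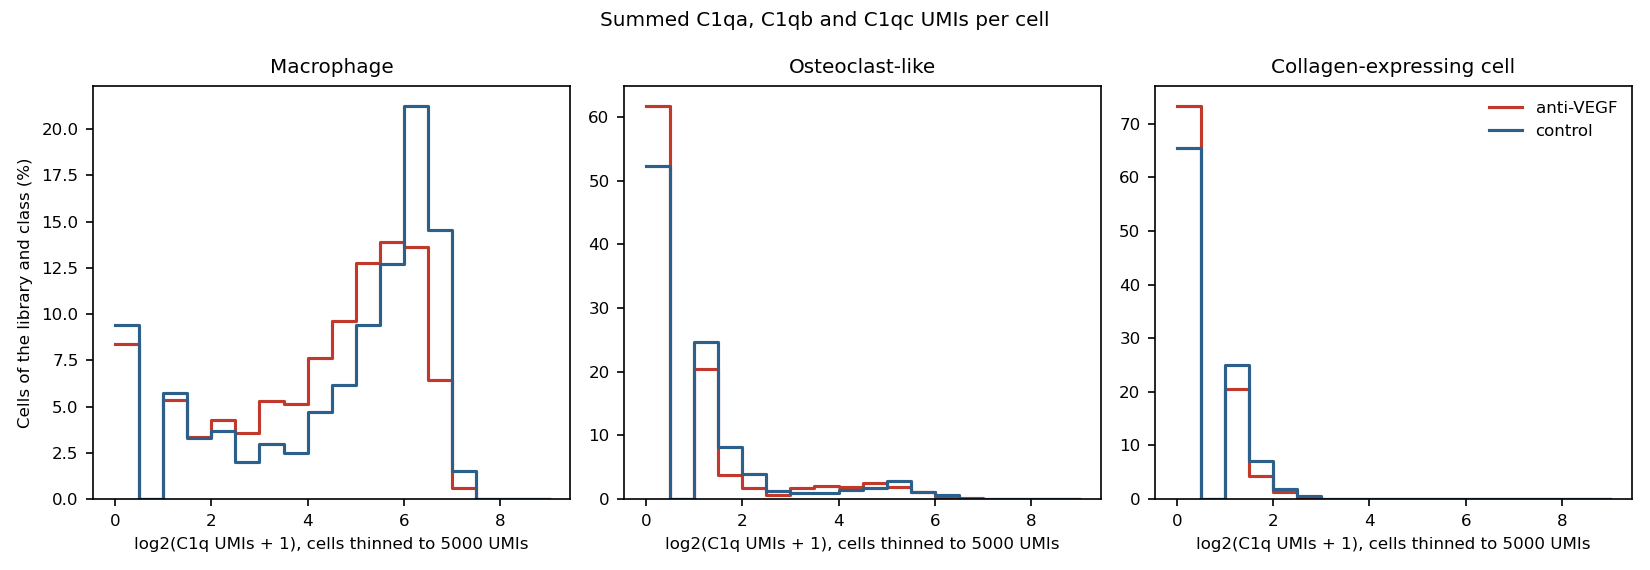
Share of cells (%) by the log2 of summed C1qa, C1qb and C1qc UMIs plus 1, in cells thinned to 5000 UMIs, for macrophages, osteoclast-like and collagen-expressing cells of both libraries. The median macrophage had 28 C1q UMIs in the anti-VEGF and 45 in the control library, and most osteoclast-like and collagen-expressing cells had 0.

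Between the libraries, a gene was called when its ratio of anti-VEGF over control passed 1.5-fold in either direction, its interval lay on the same side of 1 and at least 30 UMIs were counted in both libraries together. In macrophages 2 of the 9 genes were called, C5ar1 higher and C4b lower, against 11.5% of the 13815 genes tested; C5ar1 lost its call without the macrophages that express hypoxia genes (1.497) and C4b with scaling by trimmed means of the gene ratios, TMM (0.676). The summed C1q chains had 6998 CPM in anti-VEGF and 9096 CPM in control macrophages, a ratio of 0.769 (0.767 to 0.771), and no chain passed 1.5-fold. The ratios were 0.806 for C1qa, 0.739 for C1qb and 0.741 for C1qc. In osteoclast-like cells the ratio of C1qa was 0.907, and 1.00 in cells of equal depth. As a mean over cells, the ratios there were 0.573 for C1qa, 0.517 for C1qb and 0.540 for C1qc, and all 3 chains were then called lower. The median log2 ratio was -0.09 for the 9 genes and -0.08 for all genes tested in macrophages, and TMM scaling moves every macrophage log2 ratio up by about 0.1. The macrophage markers used for the gate moved in the same direction: 9 of the 11 had a ratio below 1, 1 of them (Apoe, an apolipoprotein) was called lower, and their summed level was 7513 CPM in anti-VEGF and 10361 CPM in control macrophages. Without Apoe the sum was 4978 CPM against 5626 CPM. The part of the macrophage markers in the C1q difference was not tested.

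**Figure D3:**
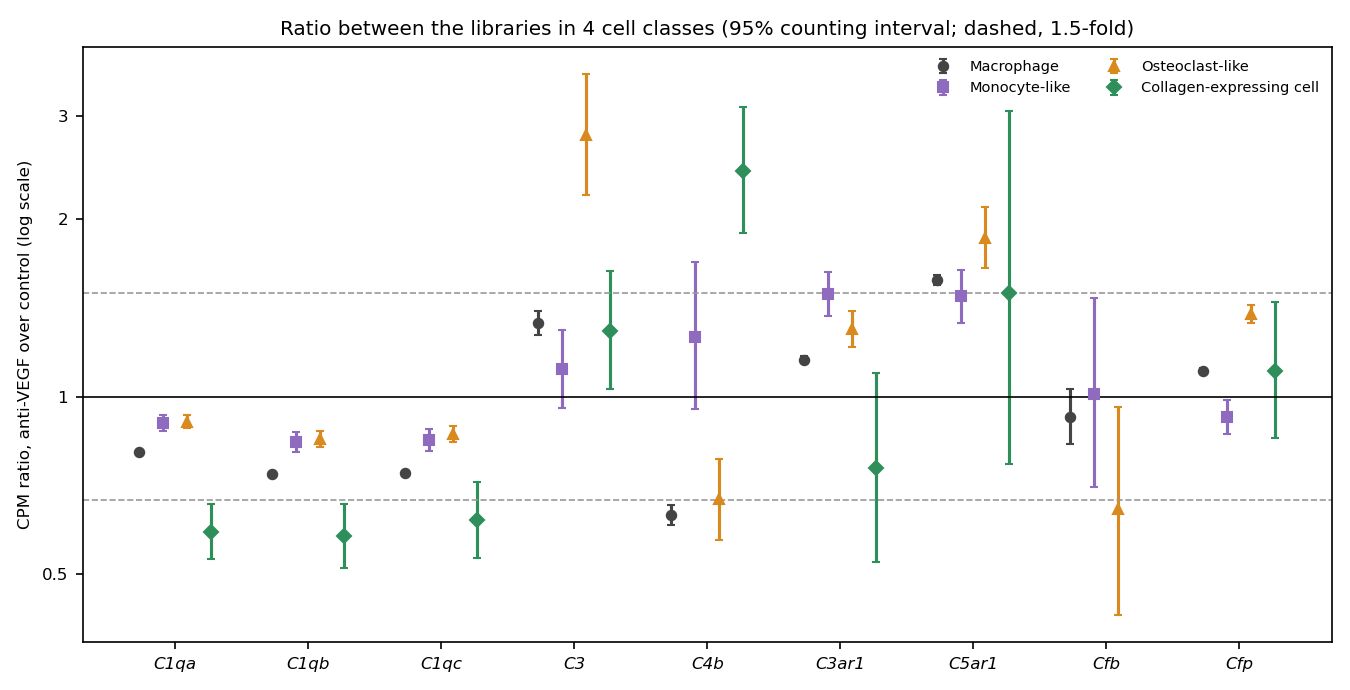
Ratio of CPM, anti-VEGF over control (log scale), for the 9 genes in 4 cell classes, with exact 95% counting intervals and dashed lines at 1.5-fold. The C1q chains lie below 1 in each class (above 1 in collagen-expressing cells with gates on thinned cells). C5ar1 lies above 1 in each, but in collagen-expressing cells (30 and 14 UMIs) its interval of 0.770 to 3.06 includes 1. There its direction reversed as a mean over cells. C4b lies below 1 in macrophages (0.629) and above it in collagen-expressing cells (2.42).

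Macrophages that expressed genes of hypoxia (Adm, Ndrg1, Ankrd37, Bnip3, Slc2a1, Egln3) were 43.9% of anti-VEGF and 9.45% of control macrophages, and those with genes of tissue-resident macrophages (Selenop, Stab1, Lyve1, Folr2, Cd163, Fcrls) were 18.3% and 29.1%. The 9 genes differed between these states, so their levels were taken within each. In cells with neither set, the summed C1q chains had 5597 CPM in anti-VEGF and 5567 CPM in control macrophages, a ratio of 1.01. In resident-like cells without hypoxia genes the ratio was 0.961, in hypoxic resident-like cells 0.816, and in the other hypoxic cells 0.715. The C1q difference was thus larger within the hypoxic cells than outside them, and the difference between these ratios was not tested. With the 4 strata given the same weights in both libraries, the log2 ratio of summed C1q was -0.11, against -0.38 as measured. C4b and C5ar1, the genes called as measured, no longer passed 1.5-fold. The share of all genes past 1.5-fold with these weights was not computed. Cells within 20% of the hypoxia threshold were 10.3% of all anti-VEGF and 4.13% of all control cells, so the strata are ranges rather than types. Over all kept cells, these were 838 beside 2848 that passed the hypoxia gate in the anti-VEGF library. In the control library they were 446 beside 745, so the control hypoxic cells lie closer to the threshold.

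**Figure D4:**
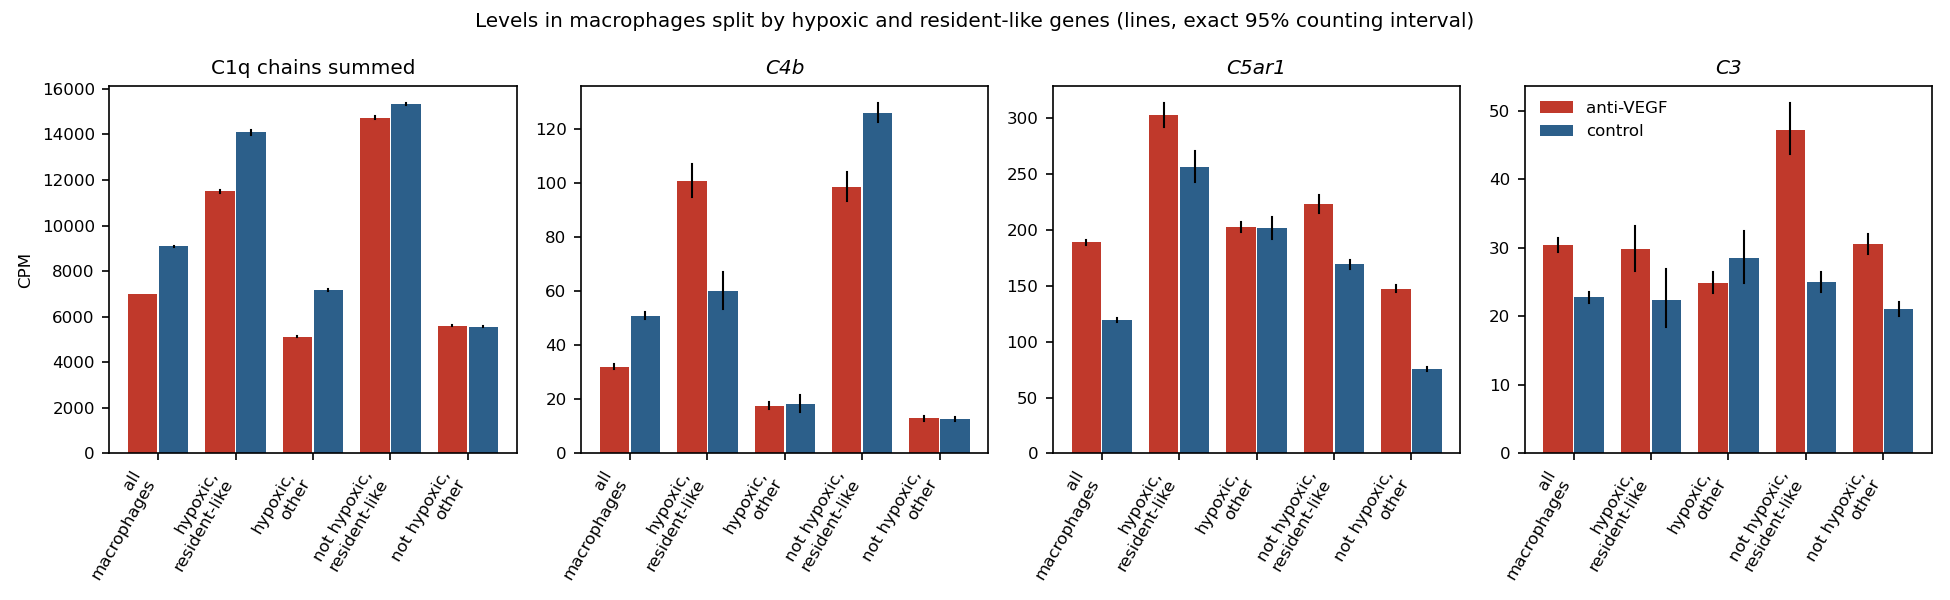
CPM of the summed C1q chains, C4b, C5ar1 and C3 in all macrophages and in the 4 strata by hypoxia and resident-like genes, anti-VEGF bars left of control bars, with exact 95% counting intervals. Summed C1q and C4b stand highest in resident-like cells, and C5ar1 in cells with neither gene set was 147 CPM in the anti-VEGF and 75.8 CPM in the control library.

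Among the other macrophage states, the chains were lowest in cells with Lpl, Vegfc and Dusp9, with 370 CPM of C1qa in the 122 anti-VEGF cells and 419 CPM in the 229 control cells. They were highest in resident-like cells, where C1qa had 6197 CPM in the anti-VEGF and 6802 CPM in the control library, and cells with MHC class II genes had 4087 and 4667 CPM. The largest difference within a state was in cells with Lyz1, Ch25h and Cd36, where C1qb had 2151 CPM in anti-VEGF and 3613 CPM in control cells, a ratio of 0.595. In that state 5 of the 9 genes were called, all lower, namely the 3 chains, C4b and Cfb, against 7.88% of all genes. In hypoxic cells 2 of 9 were called, C1qb and C1qc lower, against 8.12% of all genes, and in cells with Lpl, Vegfc and Dusp9 2 of 8 were, C5ar1 higher and C4b lower, against 5.2%. C3 alone was called, higher, in cells with MHC class II genes (background 8.41%) and in resident-like cells (7.22%), and 0 of 9 were called in cells with interferon-response genes (7.12%) or cell-cycle genes (6.9%).

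Among the macrophage states, which overlap, C4b, the mouse C4 that the classical pathway cleaves, was highest in resident-like cells. It had 99.4 CPM in anti-VEGF and 119 CPM in control resident-like cells, and 12.9 and 12.6 CPM in cells with neither gene set. Cells with MHC class II genes had 51.5 CPM in the anti-VEGF and 62.3 CPM in the control library. Those with Lyz1, Ch25h and Cd36 had 34.8 and 81.3 CPM. Over all macrophages it had 32.0 CPM in the anti-VEGF library (interval 31.0 to 33.1) and 50.9 CPM in the control library (49.7 to 52.1), a ratio of 0.629 (0.604 to 0.654). Within the strata the order was not the same: the ratio was 1.68 in hypoxic resident-like, 0.955 in other hypoxic, 0.782 in resident-like without hypoxia and 1.02 in the remaining cells. With equal weights for the strata the log2 ratio of C4b was -0.12, and with TMM scaling or thinned cells it no longer passed 1.5-fold. After thinning, 8.92% of anti-VEGF and 11.8% of control macrophages held a C4b UMI, against 4.54% and 1.91% of collagen-expressing cells.

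In collagen-expressing cells C4b had the opposite order, with 301 UMIs and 12.97 CPM in the anti-VEGF library and 87 UMIs and 5.37 CPM in the control library, a ratio of 2.42 (1.90 to 3.11). The cell with the most C4b held 19.9% of these UMIs in the anti-VEGF and 12.6% in the control library, and the ratio without it in each library was 2.21. There were 0.486 C4b UMIs per C1qa UMI in anti-VEGF and 0.119 in control collagen-expressing cells, against 0.00984 and 0.0126 in macrophages. In this class 4 of the 8 genes with enough UMIs were called, C4b higher and the 3 C1q chains lower, against 7.07% of all genes. The 3 chains were no longer called lower in thinned cells, with mixed cells kept or with gates on thinned cells; with those gates their direction reversed and C1qa was called higher.

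C3, the component on which all pathways converge, was low and patchy. It was highest in monocyte-like cells, with 91.4 CPM in the anti-VEGF and 82.1 CPM in the control library, and in neutrophils, with 70.0 CPM (54 UMIs) and 86.8 CPM (15 UMIs), and the intervals of these classes overlapped between libraries. Macrophages had 30.4 CPM in the anti-VEGF and 22.8 CPM in the control library, a ratio of 1.33 (1.27 to 1.40) that did not pass 1.5-fold. Among macrophages C3 was highest in cells with MHC class II genes, with 78.9 CPM in anti-VEGF and 46.7 CPM in control cells, a ratio of 1.69. In resident-like cells without hypoxia genes it had 47.28 CPM in the anti-VEGF against 24.98 CPM in the control library, a ratio of 1.89, while hypoxic cells as a whole had 25.9 and 26.1 CPM. No C3 UMI was found in NK cells, conventional or plasmacytoid dendritic cells or mast cells in either library, where 3 UMIs would be 13.7 to 158 CPM in the anti-VEGF and 5.34 to 44.3 CPM in the control classes.

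Osteoclast-like cells had little C3, 216 UMIs and 6.89 CPM in the anti-VEGF and 111 UMIs and 2.48 CPM in the control library, a ratio of 2.78 (2.20 to 3.53), or 2.46 without the cell with the most UMIs in each library. In this class 3 of 9 genes were called, C3 and C5ar1 higher and Cfb lower, against 5.67% of all genes. The ratio of C3 was 1.39 with doubled marker thresholds and that of C5ar1 1.04 as a mean over cells, so neither passed 1.5-fold under every setting. In collagen-expressing cells C3 had 9.27 CPM in the anti-VEGF and 7.16 CPM in the control library, but 1 cell held 33.0% of the UMIs in the anti-VEGF and 1 held 52.6% in the control library. The log2 ratio was 0.33 with these cells and 0.72 without them, and -0.54 when cells were thinned, so C3 in this class has no settled direction.

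Factor B, which forms the alternative-pathway convertase, had few UMIs in every class. Cfb was highest in monocyte-like cells, with 15.6 CPM (90 UMIs) in the anti-VEGF and 15.4 CPM (47 UMIs) in the control library. Macrophages had 5.23 CPM in the anti-VEGF library and 5.66 CPM in the control library, a ratio of 0.925 (0.832 to 1.03), and cells with MHC class II genes 11.5 and 9.56 CPM. Cfb UMIs in osteoclast-like cells were few, 37 in anti-VEGF and 82 in control cells, and the ratio of 0.645 reversed when each cell was weighted equally. After thinning, C3 and Cfb were found together in 0.470% of anti-VEGF and 0.779% of control macrophages.

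Properdin, which stabilises that enzyme, was found across the myeloid classes. Cfp had 426 CPM in anti-VEGF and 385 CPM in control macrophages, 416 and 451 CPM in monocyte-like cells, and 197 and 143 CPM in osteoclast-like cells. Its ratios in these classes, 1.11, 0.922 and 1.38, stayed within 1.5-fold, and 0 of the 9 genes were called in monocyte-like cells, against 11.7% of all genes. Between macrophage states Cfp was lowest in cells with Lpl, Vegfc and Dusp9 (264 CPM in the anti-VEGF, 207 CPM in the control library). In the anti-VEGF library it was highest, 486 CPM, in resident-like cells without hypoxia genes, which had 411 CPM in the control library. The highest control level, 445 CPM, was in hypoxic cells that were not resident-like. In thinned cells a Cfp UMI was found in 54.0% of 889 anti-VEGF and 40.9% of 1333 control osteoclast-like cells. In collagen-expressing cells these shares were 3.02% and 3.54%. Mature dendritic cells had 225.5 CPM in the anti-VEGF library, where 1 of 18 cells held 60.8% of the UMIs, and 34.4 CPM in the control library.

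The receptors were shared by macrophages and monocyte-like cells, which both passed the macrophage gate, and differed in neutrophils. C3ar1 had 332 CPM in anti-VEGF and 287 CPM in control macrophages, and C5ar1 had 189 CPM against 120 CPM. In neutrophils C5ar1 was at its highest, with 643 CPM (interval 588 to 703) in the anti-VEGF and 637 CPM (523 to 767) in the control library, while C3ar1 had 22.1 CPM (17 UMIs) and 17.4 CPM (3 UMIs). Of the receptors, C5ar1 passed 1.5-fold in macrophages, with a ratio of 1.58 (1.55 to 1.61), and it was 1.42 with the same weights for the strata. C3ar1 had a ratio of 1.16 in macrophages and 1.49 in monocyte-like cells, where C5ar1 had 1.48, all within 1.5-fold; in monocyte-like cells C3ar1 stayed so in 7 of 11 other settings and C5ar1 in 8 of 11. A C5ar1 UMI was found in 52.6% of anti-VEGF and 37.1% of control macrophages at equal depth, against 0.378% and 0.545% of collagen-expressing cells.

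C5ar1 varied with the state of the macrophage. Hypoxic macrophages had 223 CPM in both libraries. In cells with neither hypoxia nor resident-like genes it had 147 CPM in the anti-VEGF and 75.8 CPM in the control library, a ratio of 1.95 (1.88 to 2.01). Resident-like cells without hypoxia genes had 223 CPM in the anti-VEGF and 169 CPM in the control library, and hypoxic resident-like cells 302 and 256 CPM. The ratio was 3.73 (2.96 to 4.74) in cells with Lpl, Vegfc and Dusp9, from 234 UMIs in the anti-VEGF and 107 in the control library. C3ar1 had 525 CPM in the anti-VEGF and 431 CPM in the control library in resident-like cells, and 560 and 484 CPM in the hypoxic ones among them. Cells with Lyz1, Ch25h and Cd36 had 399 and 430 CPM, so these cells and resident-like cells were level in the control library. In thinned cells both receptors were found in 40.9% of anti-VEGF and 28.2% of control macrophages, and neither in 17.9% and 27.6%.

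Of 53 other complement genes listed for comparison, 52 were features, and 28 had enough UMIs in macrophages. There 3 were called higher and 1 lower, a share near the 11.5% of all genes: Itgb2, the β chain of complement receptor 3, had 169 CPM in anti-VEGF and 108 CPM in control macrophages, and the receptor Vsig4 had 4.01 CPM against 7.09 CPM. The proteases Masp1 and C1s1, the other two called higher, were each under 1 CPM. Itgam, the α chain of the same receptor, had 242 CPM against 216 CPM in macrophages, and Lrp1, a scavenger receptor, 242 CPM against 170 CPM. C1qbp and Calr, known as C1q-binding proteins, had 195 and 811 CPM in anti-VEGF and 250 and 799.9 CPM in control macrophages, and the regulators Cr1l and Cd59a 55.6 against 56.3 CPM and 40.8 against 37.8 CPM. In monocyte-like cells 4 of 15 were called higher and 1 lower, against 11.7% of all genes; Cd93 had 114 CPM in the anti-VEGF and 48.9 CPM in the control library, and the collectin Colec12 79.3 against 39.4 CPM. In osteoclast-like cells 2 of 21 were called higher and 1 lower, against 5.67% of all genes, and in collagen-expressing cells 1 of 21 was higher, against 7.07%: Serping1, the C1 inhibitor, with 31.0 CPM in the anti-VEGF and 10.1 CPM in the control library. Masp1 had 70.0 and 60.3 CPM in collagen-expressing cells. The C5 gene Hc and the terminal components C7, C8a and C8b had 0 UMIs in the classes of at least 100 cells.

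The genes most like each member were taken by Pearson correlation of log2 (CPM + 1) over 22 points, 11 classes or macrophage states in each of the 2 libraries, which share cells and libraries, so the values are descriptions. C1qa was closest to C1qc (0.999), C1qb (0.999) and Adgre1 (0.993), and the next genes were Siglec1 for C1qb (0.993) and Ms4a7 for C1qc (0.992); Adgre1 and Ms4a7 were markers of the macrophage gate. C3 was closest to Ift172 (0.963), Cxcl9 (0.951) and Per1 (0.949), and C4b to Itm2b (0.964), Selenop (0.959) and Pla2g15 (0.947), of which Selenop marked the resident-like state. C3ar1 was closest to Slc7a8 (0.996), Ncf1 (0.993) and Lyz2 (0.992), and C5ar1 to Lilr4b, Alox5ap and Basp1 (0.993 each). Cfb was closest to Fgl2 (0.977), Gdap10 (0.964) and Tox4 (0.962), and Cfp to Ubash3b (0.993), Pid1 (0.990) and Ptpro (0.989).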

How the data were processed

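The authors deposited 2 matrices of UMI counts without normalization. The submitters' processing notes name Cell Ranger 3.0.2 and the build mm10, and the file headers give software version 3.1.0; the handling of multi-mapped reads is not stated. The libraries held 8825 anti-VEGF and 11687 control barcodes, with 213948867 and 233687412 UMIs. Cells were kept with at least 500 UMIs, at least 300 detected genes and at most 10% mitochondrial UMIs. Macrophages needed 5 of 11 markers and 10 marker UMIs per 10000. Other lineages needed 3 markers, and a cell of another lineage with 7 or more macrophage markers was set apart as mixed. This limit did not apply to cells that met only the macrophage, monocyte or osteoclast gates. Osteoclast-like cells were thus kept with any number of macrophage markers, and monocyte-like cells had to pass the macrophage gate as well. No doublet caller was run. No cells were clustered. The members, the marker lists and the list of other complement genes were chosen with earlier results of these data known. The genes named among other complement genes were those with at least 50 CPM in 1 class of at least 100 cells in each library, and the 3 most alike genes of each member among genes with at least 20 CPM, of which 1 complement gene is not reported here; C1s1, Vsig4, Serping1, Hc, C7, C8a and C8b were named after their values were seen. Log2 ratios used a pseudocount of 1 CPM, while ratios and calls used none. Correlations, levels and intervals were computed with Python 3.11.15, numpy 2.4.6, scipy 1.17.1 and pandas 2.3.3; the interval of a ratio is the exact conditional binomial one and that of a share the Clopper-Pearson one. The ratio and its interval were tested on simulated counts. Gene positions came from GENCODE on GRCm38, the build named mm10, and upstream sequences from RefSeq on GRCm38.p6.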

Additional observations from a re-analysis of the deposited data

Results flagged for a closer look

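C4b was called in opposite directions in different cell classes: its ratio of anti-VEGF over control was 2.42 in collagen-expressing cells and 0.629 in macrophages. The difference between these ratios was not tested, since each group has 1 library. The collagen-expressing value rests on 301 anti-VEGF and 87 control UMIs, and the macrophage value on 3819 and 7006.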

How the results depend on the processing

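Each ratio was recomputed under up to 13 other settings, of which 4 were added after the data were seen: a limit of 5 macrophage markers for mixed cells, macrophages without the hypoxic state, the same weights for the hypoxic and resident-like strata in both libraries, and removal of the cell with the most UMIs of the gene in each library. The log2 ratio of summed C1q in macrophages was -0.378 and kept its sign in all 13. It was -0.368 with the stricter cell filter, -0.39 as a mean over cells, -0.412 in thinned cells, -0.275 with TMM scaling, -0.391 with gates on thinned cells, -0.398 with doubled marker thresholds, -0.366 with mixed cells kept, -0.276 without the hypoxic state and -0.114 with the same weights for the strata. The number of the 9 genes called in macrophages was 2 in the main setting, where 11.5% of all 13815 genes tested were called. It was 1 in thinned cells, 1 with TMM scaling and 0 with the same weights for the strata. The share of all genes called was not computed for these 3 settings. Whether the lower counts are particular to the 9 genes was thus not tested. C4b lost its call under these 3, and C5ar1 under the same weights for the strata and without the hypoxic state. In collagen-expressing cells the log2 ratio of C4b was 1.13, with 2.14 in thinned cells and 0.58 with a pseudocount of 10 CPM, which shrinks low levels by construction. The log2 ratio of C3 there was 0.332 and changed sign as a mean over cells (-0.347), in thinned cells (-0.535) and with the limit of 5 macrophage markers (-0.379); it was 0.715 without the top cell of each library. Cfb in osteoclast-like cells reversed as a mean over cells (0.469), and C1qa, C1qb and C1qc in collagen-expressing cells reversed with gates on thinned cells (0.585, 0.368 and 0.562). The cause was not tested. Over the 36 ratios recomputed, 21 kept their sign in every setting, and 15 stayed called or not called as in the main setting. Of the 9 called ratios, 5 kept their sign in every setting. Only C4b in collagen-expressing cells kept its call in every setting. No paired analysis was possible because each group has 1 library. Depth limits Cfb, C3 and every class under 100 cells, where few UMIs were counted.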

Other observations

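Cells that met no gate had a median of 1718 UMIs in the anti-VEGF and 1087 in the control library. Their C1qa level was 101.5 CPM (1131 UMIs) in the anti-VEGF and 424 CPM (2884 UMIs) in the control library, a ratio of 0.240. T cells had 42.2 CPM in the anti-VEGF and 185 CPM in the control library, a ratio of 0.228 (0.138 to 0.362), and NK cells had a ratio of 0.662 with a wide interval (0.231 to 1.56). Differences between these ratios and that of macrophages were not tested. Mixed cells had 2563 CPM of C1qa in the anti-VEGF and 3028 CPM in the control library.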
